A study of Mus musculus with 108 samples.

Results

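Promoters with few CpG dinucleotides were examined in mouse liver, in 3 chromatin state maps that divide the genome into 8 histone mark patterns. A promoter was the transcription start site (TSS) of the longest curated RefSeq transcript of an autosomal protein-coding gene, and it was called low-CpG where the 1000 bases centred on the TSS held 10 or fewer CpG in the mm10 sequence. Genes whose symbols begin with Olfr, Vmn or Krt (odorant receptors, vomeronasal receptors and keratins) were left out. The rule found 2538 low-CpG promoters among 18457 promoters, which is 13.8%. A further 4831 promoters held 11 to 40 CpG and 11088 held more than 40.

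Livers of female C57BL/6 mice had been fixed in formalin and embedded in paraffin, and H3K4me3, H3K27me3, H3K27ac and H3K4me1 were profiled in them by ChIP-seq. The SD 3m group held 8 mice of 3 months on a standard diet (SD) with 30 libraries, the SD 12m group 8 mice of 12 months on the same diet with 29 libraries, and the CR 12m group 9 mice of 12 months with 29 libraries, on caloric restriction (CR) by 30% that began at 3 months. Mice of 6 months were not analysed here. The authors merged all libraries of a group and mark before the states were assigned, so each group has 1 map, nothing could be tested across mice, and intervals given in brackets are Wilson 95% intervals over promoters that cover counting error only. Both comparisons with SD 3m use the same SD 3m map. Of the libraries of SD 3m, 7 were of H3K4me3 and 7 of H3K27me3, of those of SD 12m 8 and 8, and of those of CR 12m 5 and 6. How many reads stand behind each map is unknown, so the part of depth in any difference between maps was not tested. Below, where 3 values or states follow each other without a group, the order is SD 3m, SD 12m, CR 12m.

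In mammals, CpG-rich promoters are mostly unmethylated and bind proteins that recognise bare CpG and recruit the enzymes that write H3K4me3, so they carry this mark in nearly every tissue. Promoters with few CpG are usually methylated where their gene is silent, lack H3K4me3 there, and are opened in the cell type that uses the gene by tissue-specific transcription factors, often beside a TATA box. Genes of secreted proteins, of detoxifying enzymes and of immune receptors often have such promoters. A liver section holds mostly hepatocytes, together with Kupffer cells, endothelial cells, stellate cells and lymphocytes, and a larger or smaller number of cells of a type cannot be told apart here from more or less of a mark per cell.

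The states carry the names of the study. State 1 (active TSS) combines H3K4me3 with H3K27ac, state 2 (flanking TSS) adds H3K4me1 to both, state 3 (active enhancer 1) combines H3K27ac with H3K4me1, state 4 (active enhancer 2) has mainly weak H3K27ac and state 5 (poised enhancer) mainly H3K4me1. State 6 (repressed Polycomb) is marked by H3K27me3, state 7 (repeats/cLAD) by faint H3K4me3 and still less H3K27me3, and state 8 (quiescent) by none of the 4 marks. The state of a promoter was that of the 200 bp bin that holds its TSS.

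By the rule that chose them, the low-CpG promoters were poor in CpG. Their median was 6 CpG in 1 kb (quartiles 4 and 8), with a median GC content of 44.5% and a median ratio of observed to expected CpG of 0.127, whereas the promoters with more than 40 CpG had a median GC content of 61.4% and a ratio of 0.771. Repeats took a median of 14% of their 1 kb, against 6.70% in the promoters with more than 40 CpG. None of the 2538 had a TSS with more than 40 CpG within 1 kb of its own. They were spread over all 19 autosomes, with 52 to 292 on each, and 4 of them shared a TSS bin with another.

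The sequences of 8 of them show the range of what the maps hold, from 250 bases before to 50 bases after the TSS, written 5′ to 3′ on the strand of the gene, as given by RefSeq for mm10. Capitals mark each CpG and, in Mup4, a TATAAA that begins 27 bases before the TSS. Gm4788 (chr1:139781190-139781489, minus strand) was in state 1 in all 3 maps, Mup21 (chr4:62150792-62151091, minus strand) in states 2, 3 and 3, and Mup4 (chr4:59960618-59960917, minus strand) in state 6 in all 3. Mup10 (chr4:60582106-60582405, minus strand) was in states 8, 5 and 5, Glycam1 (chr15:103565032-103565331, minus strand) in states 8, 6 and 8, and Mrgprx2 (chr7:48499221-48499520, minus strand) in states 8, 7 and 8. Rd3 (chr1:191977120-191977419, plus strand) was in states 8, 4 and 4, and Cyp3a41a (chr5:145720087-145720386, minus strand) in states 8, 8 and 4. The printed 300 bases hold between 0 CpG (Glycam1 and Mrgprx2) and 4 CpG (Rd3).
Gm4788: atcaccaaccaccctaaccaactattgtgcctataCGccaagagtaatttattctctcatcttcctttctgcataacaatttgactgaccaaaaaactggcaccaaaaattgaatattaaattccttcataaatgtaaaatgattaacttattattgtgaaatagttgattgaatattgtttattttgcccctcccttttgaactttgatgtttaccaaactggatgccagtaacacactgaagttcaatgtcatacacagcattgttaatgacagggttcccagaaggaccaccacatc
Mup21: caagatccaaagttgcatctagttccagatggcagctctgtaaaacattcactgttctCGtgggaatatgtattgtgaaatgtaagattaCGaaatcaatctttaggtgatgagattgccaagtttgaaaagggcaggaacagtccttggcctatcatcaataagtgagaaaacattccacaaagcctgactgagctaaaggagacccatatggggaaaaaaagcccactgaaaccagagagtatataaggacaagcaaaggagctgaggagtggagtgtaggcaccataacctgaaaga
Mup4: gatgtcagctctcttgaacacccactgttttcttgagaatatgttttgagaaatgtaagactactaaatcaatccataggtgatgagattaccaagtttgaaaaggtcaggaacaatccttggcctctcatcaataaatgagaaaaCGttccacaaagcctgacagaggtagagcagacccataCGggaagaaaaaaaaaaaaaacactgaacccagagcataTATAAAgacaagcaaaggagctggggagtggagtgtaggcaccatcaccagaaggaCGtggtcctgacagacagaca
Mup10: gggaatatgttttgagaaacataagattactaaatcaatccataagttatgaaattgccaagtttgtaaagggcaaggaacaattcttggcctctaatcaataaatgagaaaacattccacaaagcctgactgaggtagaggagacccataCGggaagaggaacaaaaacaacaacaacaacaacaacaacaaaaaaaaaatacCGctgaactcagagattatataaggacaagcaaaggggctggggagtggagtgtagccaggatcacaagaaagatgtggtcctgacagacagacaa
Glycam1: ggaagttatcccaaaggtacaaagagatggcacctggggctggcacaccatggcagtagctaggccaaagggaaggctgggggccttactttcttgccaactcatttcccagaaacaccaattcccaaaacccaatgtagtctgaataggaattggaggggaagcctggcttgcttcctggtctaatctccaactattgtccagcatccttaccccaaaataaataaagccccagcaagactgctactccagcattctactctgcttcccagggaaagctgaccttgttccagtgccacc
Mrgprx2: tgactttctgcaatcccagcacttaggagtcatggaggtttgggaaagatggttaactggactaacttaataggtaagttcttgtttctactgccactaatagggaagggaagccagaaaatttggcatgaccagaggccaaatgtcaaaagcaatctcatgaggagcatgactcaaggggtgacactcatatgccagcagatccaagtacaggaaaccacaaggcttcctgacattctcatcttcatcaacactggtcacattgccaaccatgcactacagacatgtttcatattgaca
Rd3: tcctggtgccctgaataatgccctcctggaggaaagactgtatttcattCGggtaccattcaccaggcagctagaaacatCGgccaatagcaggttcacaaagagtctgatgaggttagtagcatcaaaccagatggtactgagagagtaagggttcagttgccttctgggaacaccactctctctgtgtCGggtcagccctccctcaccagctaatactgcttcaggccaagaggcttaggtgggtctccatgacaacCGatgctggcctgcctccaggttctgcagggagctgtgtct
Cyp3a41a: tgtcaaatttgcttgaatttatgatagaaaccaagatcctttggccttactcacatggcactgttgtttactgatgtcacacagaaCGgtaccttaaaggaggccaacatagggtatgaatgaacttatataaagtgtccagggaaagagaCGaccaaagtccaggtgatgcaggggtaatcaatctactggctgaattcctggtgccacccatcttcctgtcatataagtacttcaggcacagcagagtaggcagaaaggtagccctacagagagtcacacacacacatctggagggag

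The 3 Mup sequences, which encode major urinary proteins, pheromone carriers that hepatocytes secrete, and that belong to 1 family of close copies, carried 3 different kinds of state. How far their sequence can be told from its copies differed as well. Of the 50-base words (the length of the reads) in the 1 kb around the TSS, 96.5% occurred at a single place in the genome at Mup21 and 89.5% at Mup4, but 33.3% at Mup10. Reads that fit several places equally well were removed by the authors, so a promoter made of repeated words can lose its marks in these maps.

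State 8, without any of the 4 marks, was the most common state of low-CpG promoters in each map. State 8 held 1433 of them at 3 months (56.5%, [54.5 to 58.4]), 1257 in SD 12m (49.5%, [47.6 to 51.5]) and 1429 in CR 12m (56.3%, [54.4 to 58.2]). Among promoters with more than 40 CpG it held 8.06%, 5.29% and 7.40%, and among all autosomal bins of the genome 66.0%, 51.8% and 62.1%. In this state the low-CpG promoters lay closer to the genome at large than to the CpG-rich promoters. Chromosomes differed widely, from 28.9% on chromosome 11 to 78.3% on chromosome 14 in SD 3m.

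The states with H3K4me3 and H3K27ac, which mark most CpG-rich promoters, were uncommon. State 1 held 61 low-CpG promoters in both SD groups (2.40%) and 45 in CR 12m (1.77%), while 59.0%, 57.9% and 50.8% of the promoters with more than 40 CpG were in it. State 2 held 80 (3.15%), 45 (1.77%) and 36 (1.42%). In place of these states, marked low-CpG promoters showed the enhancer patterns. States 3 to 5 together held 632 (24.9%), 681 (26.8%) and 688 (27.1%), against 10.8%, 17.9% and 25.3% of the promoters with more than 40 CpG. They held more of the promoters with 11 to 40 CpG, at 30.4%, 38.0% and 42.1%. Over all promoters they held 17.9%, 24.4% and 29.9%. State 3 alone held 297 (11.7%), 296 (11.7%) and 383 (15.1%), and state 6 held 279 (11%), 383 (15.1%) and 297 (11.7%). Of all promoters, state 3 held 5.80%, 8.34% and 13.8%, and state 6 held 9.90%, 13.1% and 11.3%.

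Counted together, states 1 to 5 held 773 low-CpG promoters at 3 months (30.5%, [28.7 to 32.3]), 787 in SD 12m (31.0%, [29.2 to 32.8]) and 769 in CR 12m (30.3%, [28.5 to 32.1]). These 3 intervals overlap almost wholly. The same share over all promoters was 68.2%, 68.4% and 68.7%. On chromosome 19, which carries a cluster of Cyp2c genes, 61.7% of the low-CpG promoters were in these states in SD 3m, and on chromosome 14 13.8%.

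**Figure D1:**
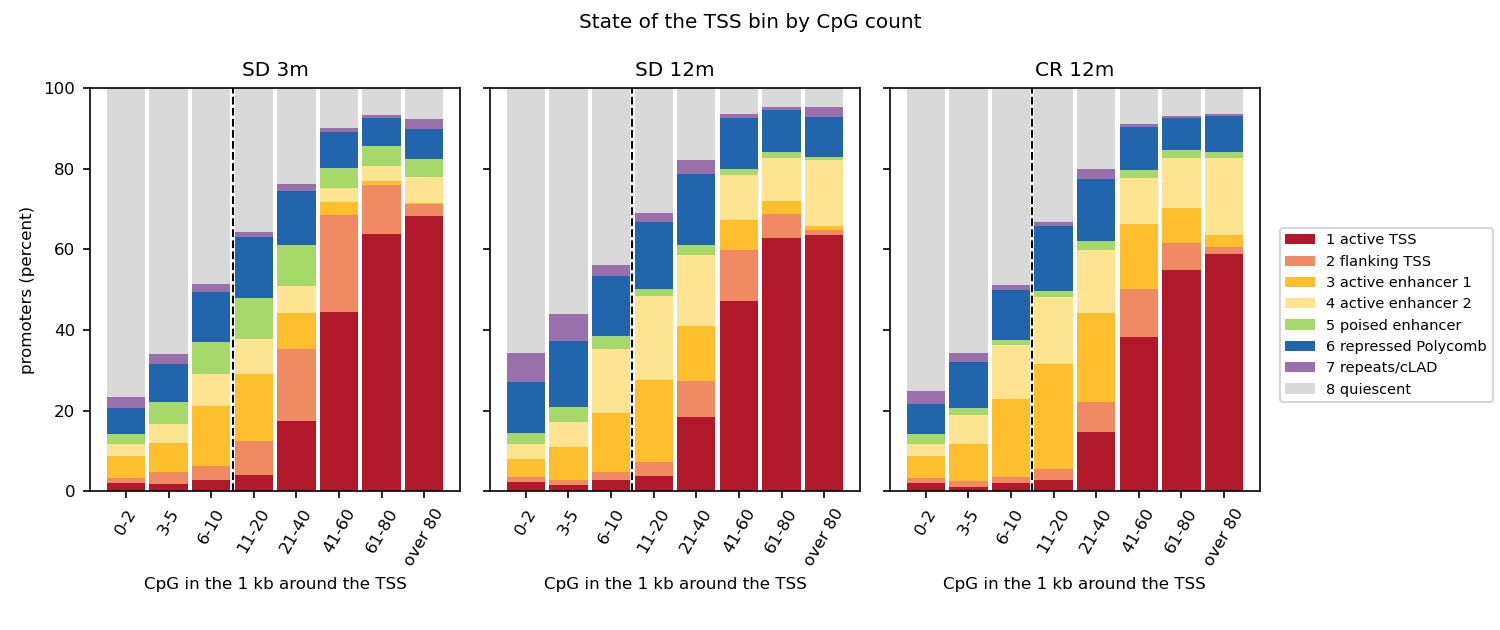
Percent of autosomal protein-coding promoters in each state (vertical axis) by the number of CpG in the 1 kb around the TSS (horizontal axis), 1 panel for each map, with the low-CpG promoters to the left of the dashed line. State 8 in grey shrinks from 76.6% of promoters with 0 to 2 CpG to 7.59% of those with more than 80 in SD 3m, and state 1 in dark red grows from 2.02% to 68.4%.

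The shares of state 8 and of states 1 to 5 also differed within the low-CpG promoters by the number of CpG. With 0 to 2 CpG (248 promoters) 14.1% were in states 1 to 5 in SD 3m, with 3 to 5 CpG (747) 22.1%, and with 6 to 10 CpG (1543) 37.1%. Of the 322 promoters with exactly 10 CpG, 39.1% were in state 8 in SD 3m and 3.42% in state 1, and of the 282 promoters with 11 CpG, just outside, 40.8% and 3.55%. Alb, which encodes serum albumin, has 11 CpG and so falls just outside as well.

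Repeated sequence went together with state 8. Among the low-CpG promoters, 583 (23%) had under 80% of their 50-base words at a single place in the genome, compared with 5.80% and 1.94% of the promoters with 11 to 40 and with more than 40 CpG. Of these 583, 481 (82.5%) were in state 8 in SD 3m, and of the 174 with under 20% of such words 171 (98.3%). Among the 1955 with 80% or more, state 8 held 952 (48.7%), 791 (40.5%) and 958 (49.0%), and states 1 to 5 held 36.2%, 36.7% and 35.5%. State 8 remained far more frequent in these 1955 than among all 17379 promoters with 80% or more such words, at 17.2%, 13% and 15.9%.

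**Figure D2:**
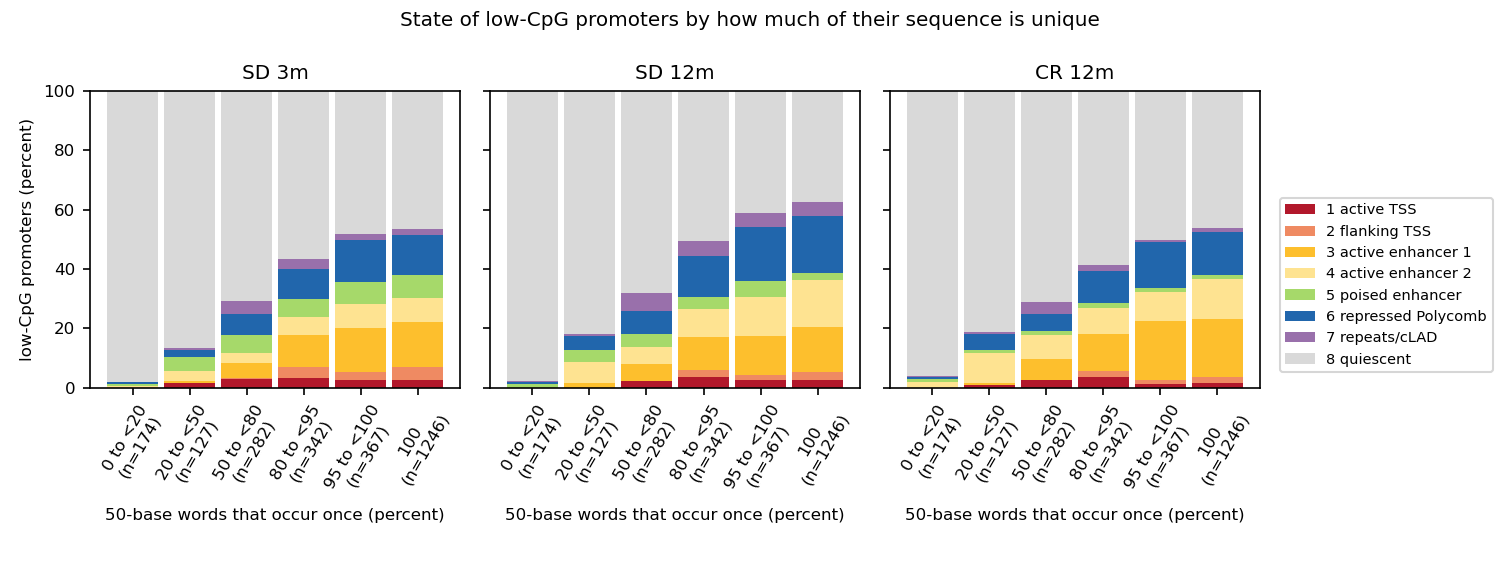
Percent of low-CpG promoters in each state (vertical axis) by the percent of their 50-base words that occur at a single place in the genome (horizontal axis, number of promoters in brackets), 1 panel for each map. State 8 takes 98.3% of the 174 promoters with under 20% of such words and 46.6% of the 1246 promoters with 100% in SD 3m.

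The H3K4me3 states lay beside the TSS more often than on it. Along the gene, the share of low-CpG promoters with a bin in state 1 or 2 was highest 800 bp downstream of the TSS in SD 3m, at 9.77%, while it was 5.56% at the TSS. In SD 12m it was highest at 600 bp (7.60%, against 4.18% at the TSS) and in CR 12m at 600 bp too (6.93%, against 3.19%). With 11 to 40 CpG the highest share stood at 200 bp and with more than 40 CpG at 400 bp in all 3 maps. A bin in state 1 or 2 lay within 1 kb of 313 (12.3%), 230 (9.06%) and 204 (8.04%) of the low-CpG promoters. Of those without state 1 or 2 at the TSS itself, 142, 114 and 117 had such bins only downstream, and 22, 10 and 6 only upstream.

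**Figure D3:**
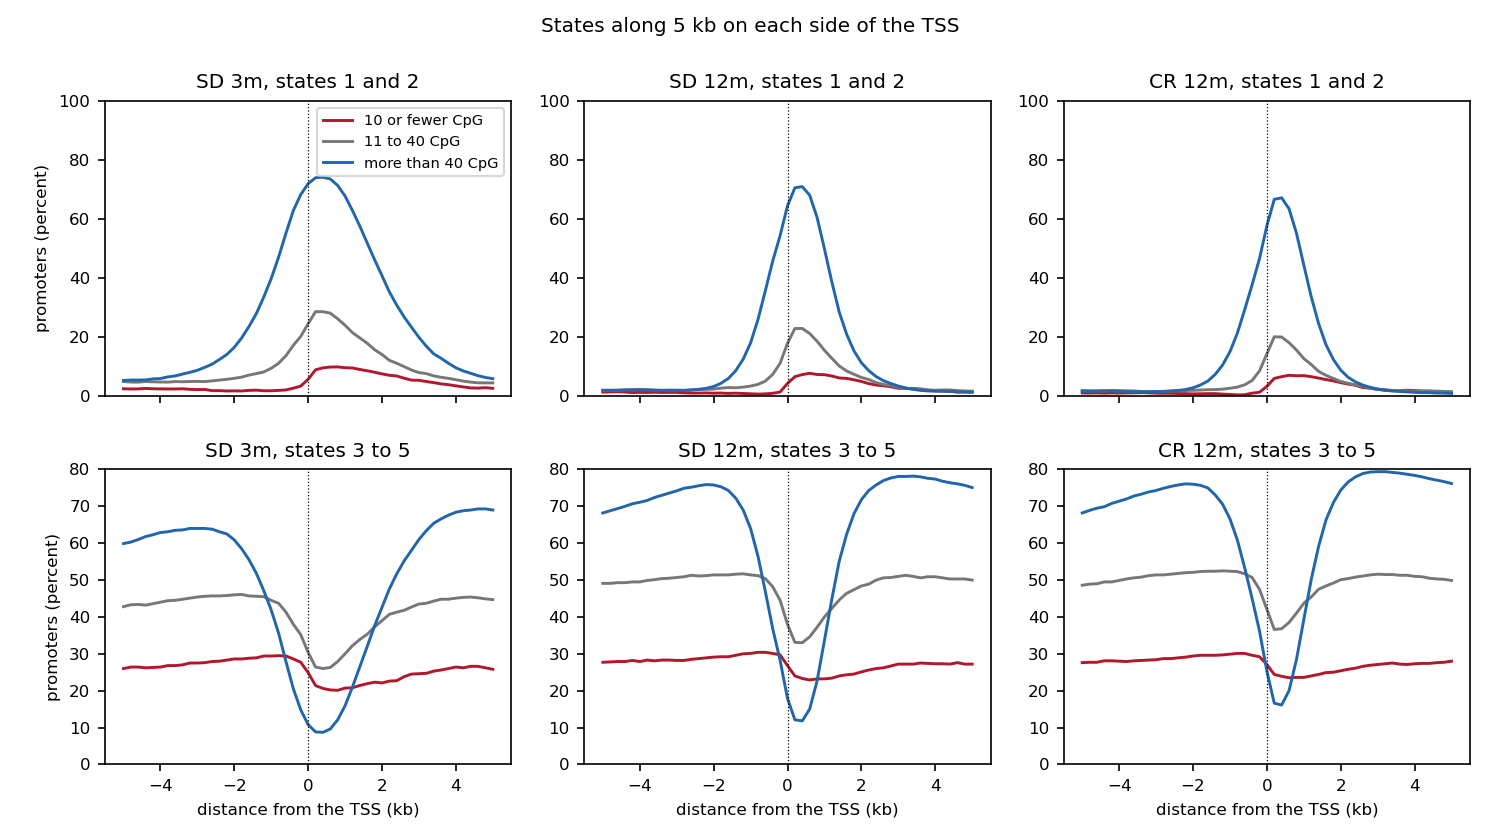
Percent of promoters (vertical axis) with a bin in states 1 and 2 (top) or states 3 to 5 (bottom) by distance from the TSS in kb along the gene (horizontal axis), for low-CpG promoters in red and the other promoters in grey and blue. In red the top curves reach at most 9.77% and peak 600 to 800 bp downstream, whereas the blue curve reaches 74.1% in SD 3m.

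Most low-CpG promoters did not stand out from the chromatin around them. In SD 3m the TSS bin and the bins 5 kb to either side had the same state at 59.2% of low-CpG promoters, but at 33.7% and 11.1% of the promoters with 11 to 40 and more than 40 CpG. The unbroken stretch of state 8 that held the TSS had a median length of 104000, 52200 and 79400 bp. State 6 stretches had medians of 28800, 30200 and 31800 bp, and state 1 stretches of 1400, 800 and 1200 bp.

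Genes of kinds that hepatocytes express were examined apart. From 3 lists of hepatocyte genes (secreted plasma proteins, drug and steroid metabolism enzymes, and enzymes of gluconeogenesis, amino acids, the urea cycle and bile acids), 222 of 367 genes had a low-CpG promoter. For the secreted proteins it was 69 of 122, for the drug and steroid enzymes 120 of 171, and for the last list 33 of 74. The lists take symbols by name pattern, so they can hold genes of other tissues, and expression of the members was not examined. States 1 to 5 held 164 (73.9%), 173 (77.9%) and 181 (81.5%) of the 222, against 26.3%, 26.5% and 25.4% of the 2316 other low-CpG promoters. In all 3 maps 162 of the 222 were in these states, and 39 were in states 6 to 8.

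Even the promoters of these listed genes carried enhancer states more often than promoter states. State 1 or 2 held 53 (23.9%), 50 (22.5%) and 47 (21.2%) of the 222 at the TSS. Among the 22 genes of the same lists with more than 40 CpG, it held 16 (72.7%), 15 and 16. Within 1 kb, however, 118 (53.2%), 112 (50.5%) and 113 (50.9%) of the low-CpG promoters of the lists had a bin in state 1 or 2, compared with 8.42%, 5.09% and 3.93% of the other low-CpG promoters. On the downstream side only it was 60, 59 and 64, and on the upstream side only 2, 3 and 2.

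The bins around single genes show this arrangement. Cyp2e1, which oxidises ethanol and many drugs, has 9 CpG and its TSS at chr7:140763819. In SD 3m it was in state 4 at the TSS and in state 1 from 400 to 1000 bp downstream, and in SD 12m and CR 12m state 1 reached back to the TSS. Serpina1a, which encodes an antitrypsin of the plasma, has 8 CpG and was in state 4 at the TSS in SD 3m and SD 12m, with state 1 from 400 bp onward in SD 3m and from 600 bp onward in SD 12m, and in state 1 from 200 bp upstream in CR 12m. Only 57.8% of its 50-base words occur at a single place, as it belongs to a family of close copies. Alb, just outside the limit, was in state 4 at the TSS in all 3 maps, with state 1 from 200 bp downstream in SD 3m, from 400 bp in SD 12m and no state 1 within 1 kb in CR 12m.

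Active TSS at the start bin in all 3 maps was found at 22 low-CpG promoters, of which 9 belong to the hepatocyte lists. The 10 with the fewest CpG included Gm4788 (1 CpG), Cyp2c38 (2), Aspdh (4), Cyp2a12 (5), Cyp4f15, F13b and Ftcd (6 each) and Gc (7). F13b encodes a subunit of clotting factor XIII, Ftcd an enzyme of histidine breakdown, Gc the carrier of vitamin D in plasma, and Cyp2c38, Cyp2a12 and Cyp4f15 cytochrome P450 enzymes. At F13b in SD 3m the bins from 1000 to 200 bp before the TSS were in state 3 and those from the TSS to 800 bp after it in state 1. The bins at 200 to 1000 bp before the TSS of Gm4788 were in states 1 and 2 in SD 3m and all in state 3 in both older groups. Cyp2c38 was in state 2 at 600 to 1000 bp before its TSS in SD 3m and in state 3 there in SD 12m and CR 12m.

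State 2 in all 3 maps was found at 20 low-CpG promoters, 11 of them in the hepatocyte lists, and state 3 at 212, of which 53 were in the lists. Low-CpG promoters in states 6 to 8 throughout numbered 1652, with 39 in the lists. Put as shares, 24.3% of the 667 promoters in states 1 to 5 throughout were of the hepatocyte lists and 2.36% of the 1652.

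Among the plasma proteins, the promoters with the fewest CpG in states 1 to 5 in all 3 maps included Mup21 (3 CpG), C9 and Mup18 (4 each). C9, the pore-forming end of the complement cascade, was in state 3 in all 3 maps. Mup21 and Mup5 were in state 2 in SD 3m and in state 3 in SD 12m and CR 12m, and Mup18 was in states 5, 5 and 4. In states 6 to 8 throughout stood Mup20 (4 CpG), Mup2 and Mup8 (5 each), all in state 8, and Mup4 in state 6.

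The Mup cluster shows how sequence copies and states go together. All 22 Mup promoters with 3 to 8 CpG were measured. The 5 with 80% or more of their words at a single place (84.1% to 96.5%) were in no case in state 8, and 4 of them were in states 1 to 5 in each map. Of the 17 others (1.26% to 33.3%), 14, 13 and 12 were in state 8. The part of read placement in their state was not tested.

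Drug and steroid enzymes with the fewest CpG in states 1 to 5 throughout were Cyp3a25, Cyp3a59, Sult3a1 and Sult6b2, with 1 CpG each. Cyp3a25 and Cyp3a59 encode cytochrome P450 enzymes of the CYP3A family, and Sult3a1 and Sult6b2 sulfotransferases. Cyp3a25 was in states 1, 4 and 1, Cyp3a59 in 5, 3 and 3, Sult3a1 in 4, 5 and 5, and Sult6b2 in 4, 4 and 5. Cyp4a12a and Cyp4a12b, with 0 CpG, were in state 8 in all 3 maps. They encode fatty acid hydroxylases known for higher expression in male than female mouse liver, all mice here were female, and 35.1% and 34.1% of their words occur at a single place. Cyp2c66 (1 CpG, 95.7%) and Sult3a2 (2 CpG, 100%) were in state 8 throughout as well.

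In the metabolic list, Aldh1a7 and Rdh7 (2 CpG each), which encode an aldehyde and a retinol dehydrogenase, and Slco1a1 (3 CpG), a transporter of bile acids and other organic anions, were in state 3 in all 3 maps. Akr1c6 and Akr1c14, steroid-reducing enzymes, were in state 2 in SD 3m and in state 3 in both older groups. Slco1b2, another organic anion transporter, was in states 1, 1 and 2. A further pair was picked after their values were seen. Cps1, the first enzyme of the urea cycle, was in state 1 throughout, and Cyp7a1 of the drug and steroid list, the rate-limiting enzyme of bile acid synthesis, in states 3, 5 and 3.

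**Figure D4:**
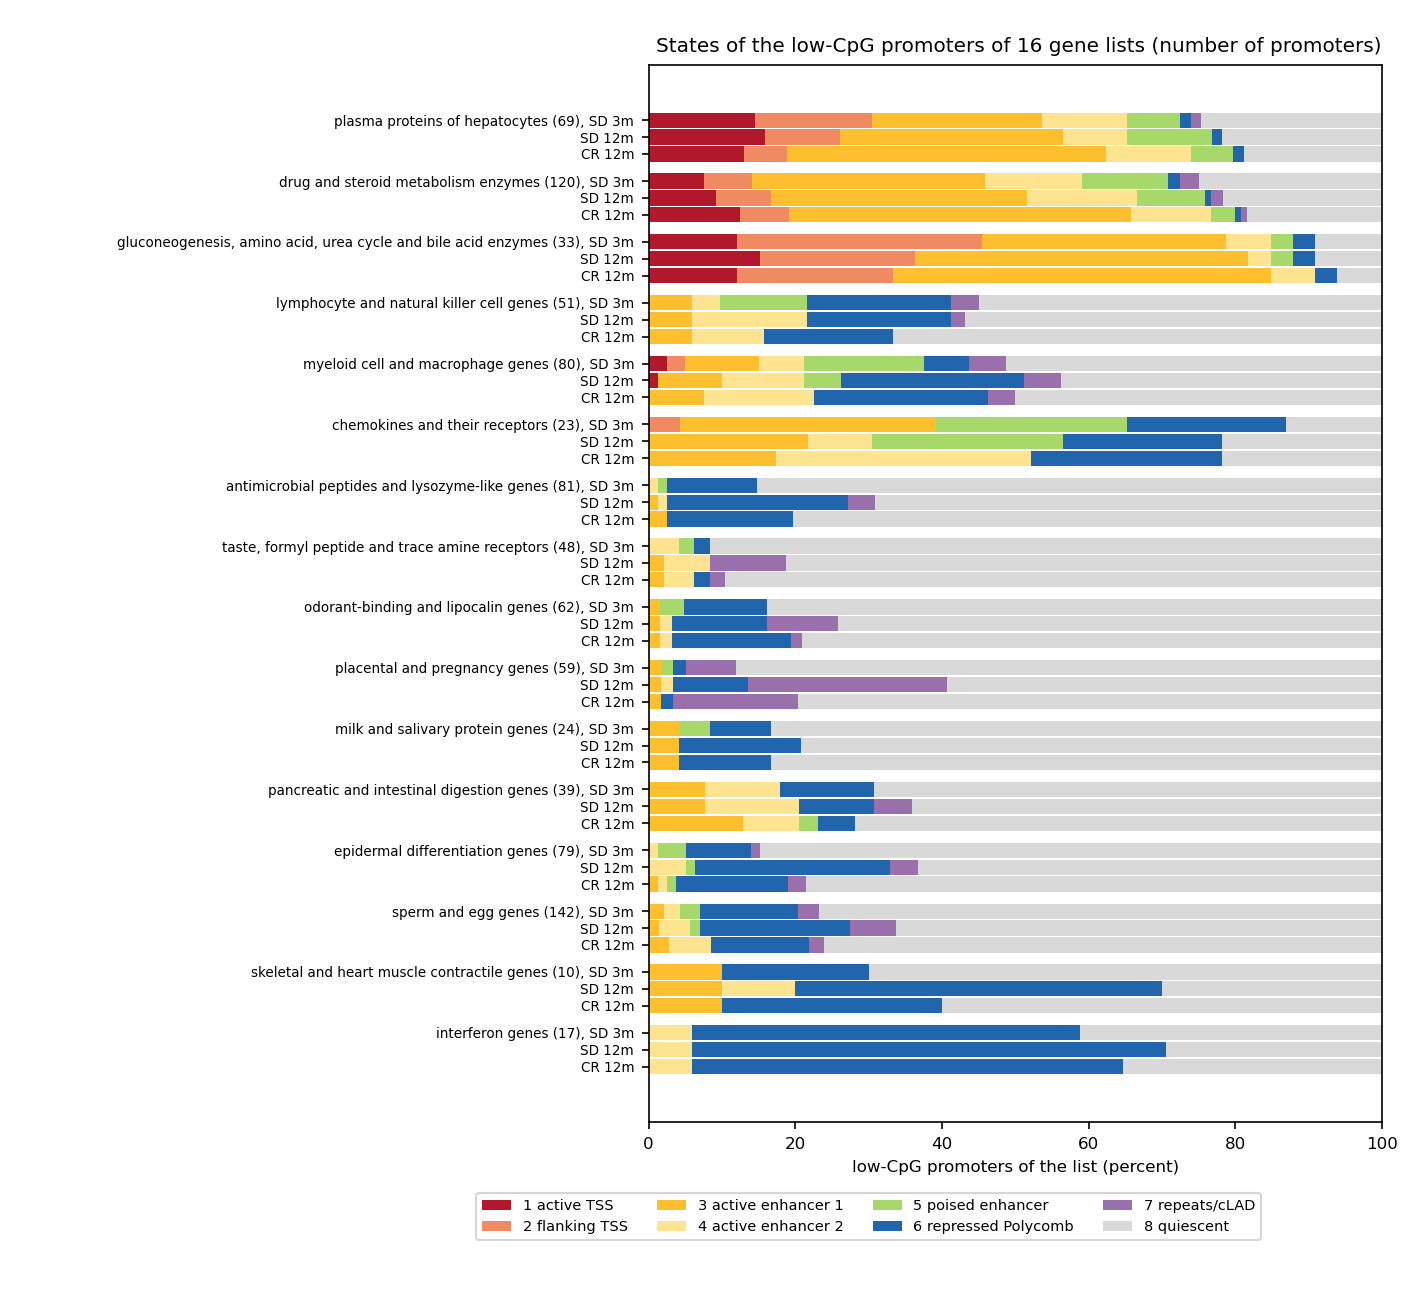
Percent of the low-CpG promoters of each of 16 gene lists in each state (horizontal axis), with 3 bars for each list in the order SD 3m, SD 12m and CR 12m and the number of promoters in brackets. The 3 hepatocyte lists at the top are mostly in states 1 to 5 (70.8% to 90.9%), and most tissue-restricted lists in the lower part are mostly in state 8, except the interferon genes, with 9, 11 and 10 of 17 in state 6, and the muscle genes in SD 12m, with 5 of 10.

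The lists for genes of other tissues were largely in state 8, which held 56.5% of all low-CpG promoters in SD 3m. In SD 3m it held 44 of 48 taste, formyl peptide and trace amine receptors, 52 of 59 placental and pregnancy genes, 69 of 81 antimicrobial peptides, 67 of 79 epidermal differentiation genes, 52 of 62 odorant-binding and lipocalin genes, and 20 of 24 milk and salivary protein genes. Of these 6 lists no low-CpG promoter was in state 1 or 2 in any map, where 5.56%, 4.18% and 3.19% of all low-CpG promoters were. Interferon genes differed in kind, with 9, 11 and 10 of 17 in state 6, among them Ifna15 and Ifna1 in state 6 throughout. State 8 also held 27 of 39 pancreatic and intestinal digestion genes (69.2%) and 109 of 142 sperm and egg genes (76.8%) in SD 3m. Of the muscle contractile genes it held 7 of 10 (70.0%). Under 80% of words stood at a single place in 39 antimicrobial peptides, 19 odorant-binding and lipocalin genes and 45 sperm and egg genes. In the other lists it was 5 taste and related receptors, 10 placental, 8 epidermal, 6 milk and salivary, 7 digestion, 0 muscle and 6 interferon genes. The part of read placement in these counts was not tested. Of the muscle genes 2, 5 and 3 of 10 were in state 6 and 7, 3 and 6 in state 8. Some members went against their list. Lcn2, an iron-trapping acute-phase protein that the liver makes, and Amy1, an amylase also made by the liver, were in state 3 in all 3 maps, as was Ceacam1, an adhesion protein of epithelial cells, hepatocytes included.

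Markers checked for the makeup of the tissue fell on both sides of the CpG limit. The hepatocyte markers Alb, Apoa1, Apoa2, Fgb, Serpina1a and Cyp2e1 were in states 1 to 4 in every map. Of the macrophage markers, Csf1r (10 CpG) was in state 3 throughout, whereas Clec4f, which marks Kupffer cells, was in state 6 throughout and Cd5l in states 7, 6 and 6. Klrb1c and Gzma of natural killer and T cells, Ms4a1 of B cells and Prss2 of the pancreas were in state 8 in all 3 maps.

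The first comparison asked how the states of low-CpG promoters differed between 3 and 12 months on the standard diet. In SD 12m 773 of the 2538 (30.5%, [28.7 to 32.3]) had another state than in SD 3m, against a background of 32.5% over all promoters. The share ranged from 18.1% to 46.9% between chromosomes. Among promoters with 80% or more of their words at a single place, it was 35.3% of the low-CpG promoters and 33.4% of all. A move, gain or loss here is a difference between maps of different mice, and SD 12m and CR 12m are of the same age. Of the 773, 378 had exchanged 1 of states 6 to 8 for another and 255 had done so within states 1 to 5. Crossings between the marked and the unmarked or repressed states were fewer, with 77 promoters going from states 6 to 8 to states 1 to 5 (4.36% of 1765, background 8.05%) and 63 going the other way (8.15% of 773, background 3.56%). The starting states differed from the background. Of the 773 in states 1 to 5 in SD 3m, 632 were in states 3 to 5, against 3300 of 12595 over all promoters. From state 5, 18.2% of low-CpG promoters went to state 8 and 4.71% to state 6, against 10.4% and 9.01% of all. From state 4, 9.70% went to state 8, against 6.60% of all. The part of the starting state in these shares was not tested.

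The largest flow led from state 8 to state 6, that is, from no mark to the H3K27me3 state. It took 199 of the 1433 low-CpG promoters in state 8 in SD 3m (13.9%, [12.2 to 15.8]), whereas it took 24.9% of all promoters in state 8. The reverse move, from state 6 to state 8, took 87 of 279 (31.2%, background 19.6%). Of the 199, 79 were in state 6 in CR 12m too and 118 were in state 8. They lay on all 19 autosomes, inside unbroken stretches of state 6 with a median of 23800 bp, and at 112 of them (56.3%) the whole stretch was in state 8 in SD 3m. Of the 199, 1 belongs to the hepatocyte lists, which held 50 of the 1433, 28 of these 50 with under 80% of their words at a single place. Of the 199, 13 had under 80% of their words at a single place, against 481 of the 1433. With 80% or more were 952 of the 1433 low-CpG promoters in state 8 in SD 3m, and 2989 of all 3752 promoters in it. The part of repeated sequence in the lower share of this move was not tested.

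Among these 199, those with the most state 6 within 5 kb and the fewest CpG were Glycam1 (0 CpG), Defb6, Lce3c and Sva (1 CpG each), 9530002B09Rik and Klk1b9 (2 each). Glycam1 encodes a mucin of lymph node vessels and milk, Defb6 a defensin, Lce3c a protein of the cornified skin envelope, Sva a seminal vesicle antigen and Klk1b9 a kallikrein protease. Defb6, Sva and 9530002B09Rik were in state 6 in CR 12m as well, and Glycam1, Lce3c and Klk1b9 were in state 8 there. By list, state 6 held 7, 21 and 12 of 79 epidermal differentiation genes. It held 10, 20 and 14 of 81 antimicrobial peptides and 19, 29 and 19 of 142 sperm and egg genes.

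A move from state 8 to state 7, the state of faint H3K4me3 and H3K27me3 named for repeats and lamina-associated domains, took 75 of 1433 (5.23%, [4.2 to 6.51]; background 4.29%). In CR 12m 56 of the 75 were in state 8 and 12 in state 7. State 7 held 1.92%, 11.9% and 4.35% of all autosomal bins and 2.09%, 4.37% and 1.69% of the low-CpG promoters, so in both older groups the promoters held less of it than the genome. Chromosome 13, with its cluster of prolactin-like genes, had 15 of the 75. Of 59 placental and pregnancy genes 4, 16 and 10 were in state 7, among them Prl3c1 and Cts3 (states 8, 7 and 7), a prolactin relative and a placental cathepsin. The others named by the rule were Mrgprx2, a Mas-related receptor, Rpe65, the retinal isomerase of the eye, Fscb, a sperm tail protein, Gm597, and Esp23, a secreted pheromone peptide. All 5 were in state 8 in CR 12m.

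The marked promoters exchanged states among themselves. From state 2 in SD 3m 33 of 80 (41.2%, background 20.8%) were in state 3 in SD 12m, and 44 (55%, background 32.8%) in CR 12m. Of the 170 in state 5 in SD 3m, 66 (38.8%, background 52.7%) were in state 4 in SD 12m and 62 (36.5%, background 39.1%) in CR 12m, while 40 and 15 were in state 5. State 5 took 5.61%, 2.75% and 2.47% of the autosomal bins, so it was rarer across the genome too. State 3 was kept by most, at 227 of 297 in SD 12m and 244 of 297 in CR 12m.

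**Figure D5:**
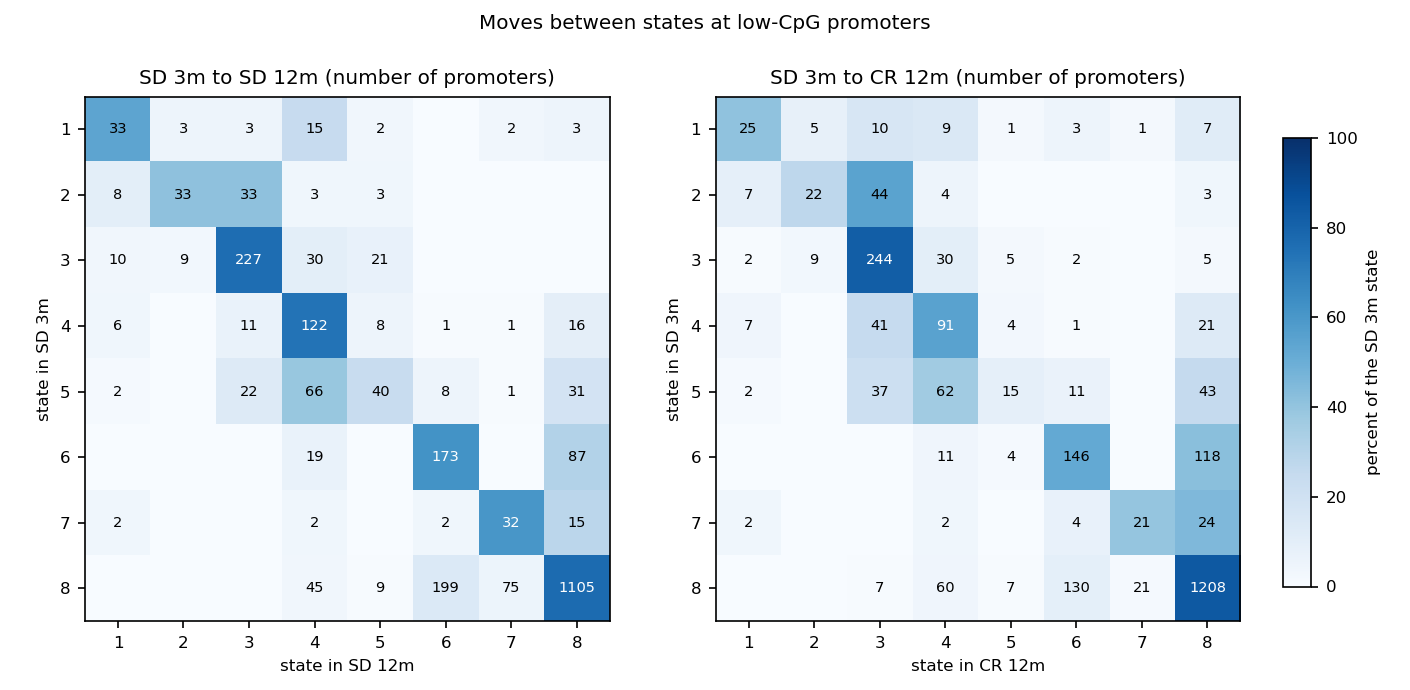
Number of low-CpG promoters by state in SD 3m (rows) and in SD 12m or CR 12m (columns), with the shade giving the percent of the SD 3m state. The diagonal holds most promoters, with 1105 and 1208 of 1433 in state 8 in both maps compared, and the largest off-diagonal counts are 199 and 130 from state 8 to state 6.

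The second comparison asked the same for mice of 12 months on caloric restriction. Another state than in SD 3m was found at 766 low-CpG promoters (30.2%, [28.4 to 32]; background 36.9%). Among promoters with 80% or more of their words at a single place, it was 34.7% of the low-CpG promoters and 38.0% of all. The moves from state 8 were fewer than in SD 12m, with 130 to state 6 (9.07%, [7.69 to 10.7]; background 18.4%) and 21 to state 7 (1.47%, [0.960 to 2.23]; background 1.39%). Of the 130, 9 had under 80% of their words at a single place, against 481 of the 1433 in state 8 in SD 3m. From state 6 to state 8 went 118 of 279 (42.3%, background 26%). Crossings were 93 of 1765 into states 1 to 5 (5.27%, background 10.3%) and 97 of 773 out of them (12.5%, background 4.16%). From state 5, 25.3% of low-CpG promoters went to state 8 and 6.47% to state 6, against 14.2% and 8.92% of all. From state 4, 12.7% went to state 8, against 8.05% of all. The part of the starting state was not tested here either. The brackets for the moves to states 6 and 7 do not overlap those of SD 12m, but they count promoters, which lie in shared stretches, and not mice.

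From state 8 to state 4, the weak H3K27ac state, went 45 low-CpG promoters in SD 12m (3.14%, background 6.72%) and 60 in CR 12m (4.19%, background 8.42%), with 32 in both. Those with the most state 4 within 5 kb included Rd3, a protein of photoreceptors, Ccdc154, Slc34a3, a kidney phosphate transporter, and Dsg3, a desmosome protein of skin, all 4 in states 8, 4 and 4, and Klrb1a, a natural killer cell receptor, which was in state 8 in CR 12m. In CR 12m alone the move was found at Cyp3a41a, Gm36210 and Camk1g. Cyp3a41a is a cytochrome P450 known for higher expression in female than male mouse liver, and 23.1% of its words occur at a single place. To state 3 went no low-CpG promoter in SD 12m (background 0.0267%) and 7 in CR 12m (background 0.480%). Of these 7, 5 are in the hepatocyte lists, 4 had under 80% of their words at a single place, and they include Cyp2a4, Cyp2a5, Sult2a5 and Cyp3a57, which were in state 5, 5, 5 and 4 in SD 12m, and Cyp11b2 and Dnase1.

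Gains in the hepatocyte lists outnumbered losses. Of the 58 in states 6 to 8 in SD 3m, 11 were in states 1 to 5 in SD 12m (19%, background 8.05%), and 19 in CR 12m (32.8%, background 10.3%). The same 2 of 164, Mup17 and Cyp4f18, went the other way in each (1.22%, backgrounds 3.56% and 4.16%). Of the 11 gains 7, and of the 19 gains 13, had under 80% of their words at a single place. Between SD 12m and CR 12m 8 were gained and 0 lost, 6 of the 8 with such sequence. They were Mup16, Saa2, Cyp3a41a, Sult2a1, Sult2a2, Cyp11b2, Cyp4f40 and Akr1c21, named here because they are few. Restricted to the 166 with 80% or more, states 1 to 5 held 138 (83.1%), 141 (84.9%) and 143 (86.1%), and among the 56 with less 26 (46.4%), 32 (57.1%) and 38 (67.9%).

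Among myeloid and macrophage genes the losses outnumbered the gains. Of their 80 low-CpG promoters, states 1 to 5 held 30 (37.5%), 21 (26.2%) and 18 (22.5%), and state 6 held 5, 20 and 19. State 5 held 13 of the 30 in SD 3m, against 170 of the 773 low-CpG promoters in states 1 to 5. The part of the starting state in the losses below was not tested. Of the 30 in states 1 to 5 in SD 3m, 10 were in states 6 to 8 in SD 12m (33.3%), against 8.15% of all low-CpG promoters and a background of 3.56%, and 14 in CR 12m (46.7%), against 12.5% and 4.16%. Of the other 50, 1 and 2 went into states 1 to 5 (2% and 4%, backgrounds 8.05% and 10.3%), all of these with 80% or more of their words at a single place. Fpr2, a receptor for formylated peptides of bacteria, was in states 5, 6 and 6, and Msr1, a scavenger receptor of macrophages, in states 1, 1 and 4. Lyz1, Cd300c and Ms4a7, picked after their values were seen, were among those lost in both older groups. Clec9a and Clec2e were in state 3 throughout. Chemokines and their receptors had 15, 13 and 12 of 23 in states 1 to 5, with Ccl6 and Ccl9 in state 3 throughout and Ccr2, a receptor of monocytes, and Ccr3 in states 3, 5 and 6. Lymphocyte and natural killer genes had 11, 11 and 8 of 51. Whether fewer such cells or less of a mark per cell went with these values cannot be told apart. The study reported that histology of these livers showed no structural differences in infiltrating cells. It also named cell loss and infiltration in aged tissue among its limitations.

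Other promoters left states 1 to 5 for state 8 in both older groups. Those with the most state 8 within 5 kb were Adam39 (0 CpG, states 4, 8 and 8), Ccdc169, Lrrc69 and Aspn (4, 8 and 8), Cdh17 and Ifi205 (5, 8 and 8). Aspn encodes a matrix proteoglycan, Cdh17 a cadherin of the intestine and Ifi205 an interferon-induced protein.

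Placed side by side, the 3 maps agreed at most low-CpG promoters. The state was the same in all 3 at 1516 (59.7%), against 45.9% of the promoters with 11 to 40 CpG and 57.1% of those with more than 40. SD 3m alone differed at 407 (16%), SD 12m alone at 256 (10.1%), CR 12m alone at 249 (9.81%), and all 3 differed at 110 (4.33%). State 8 throughout accounted for 1023 (40.3%). SD 12m and CR 12m differed at 615 (24.2%, [22.6 to 25.9]; background 27%).

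Short motifs were counted in the mm10 sequence from 250 bases before to 50 bases after each TSS, for all 2538 low-CpG promoters and all 18457 promoters. TATAAA, the core of the TATA box, lying on the strand of the gene within 20 to 40 bases before the TSS was present in 242 low-CpG promoters (9.54%, [8.45 to 10.7]). It was present in 2.84% of those with 11 to 40 CpG, in 1.01% of those with more than 40 and in 2.66% of all. Low-CpG promoters in states 6 to 8 throughout held it more often than those in states 1 to 5 throughout, at 184 of 1652 (11.1%, [9.71 to 12.7]) against 44 of 667 (6.60%, [4.95 to 8.74]). CCAAT on either strand was in 40.9% of the low-CpG promoters and in 38.3% of all. These counts describe letters and not bound factors. The intervals count every promoter, also the 583 of 2538 with under 80% of their words at a single place.

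Letters from the binding sites of liver factors were unequally spread. GTTAAT, part of the site known for HNF1, was found on either strand in 10.6% of the low-CpG promoters, in 5.25% of all promoters, and in 44 of the 222 low-CpG promoters of the hepatocyte lists (19.8%, [15.1 to 25.6]). CAAAGTCC, from the site known for HNF4, was in 2.40% of the low-CpG promoters and 1.60% of all, and in 17 of the 222 (7.66%, [4.84 to 11.9]). TTGCNNAA, from the site known for C/EBP, was in 16.7% of the low-CpG promoters, 9.49% of all and 25.2% of the 222. By state, CAAAGTCC was in 27 of 667 low-CpG promoters in states 1 to 5 throughout (4.05%, [2.80 to 5.83]) and in 20 of 1652 in states 6 to 8 throughout (1.21%, [0.785 to 1.86]). The same split gave shares with overlapping intervals for GTTAAT, at 11.8% ([9.61 to 14.5]) and 9.81% ([8.46 to 11.3]), and for TTGCNNAA, at 17.2% ([14.6 to 20.3]) and 16.3% ([14.6 to 18.2]). Sequences poor in CpG are also rich in A and T, and the part of base composition in these shares was not tested. Of the 222, 56 had under 80% of their words at a single place. Close copies can share such letters, the intervals count each copy, and the part of copies was not tested.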

How the data were processed

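Libraries of 4 histone H3 marks from the livers of 3 groups of mice were analysed, and the mice of 6 months were left out. Per the labels and the study's methods, the authors aligned single reads of 50 bases with BWA 0.6.2-r126 to mm10, removed reads without a unique place, duplicates and other chromosomes with SAMtools 0.1.18, merged the libraries of a group and mark, and had ChromHMM learn 8 states in bins of 200 bp. The deposited values are state labels, 1 of 8 for each stretch of the genome, with no score or count.

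From these, each TSS (the curated transcript with the longest span of 20021 autosomal genes, 1564 of them in the left-out families) received the state of its bin. CpG, repeats and 50-base words were counted in the mm10 reference with Python 3.11.15, NumPy 2.4.6 and pandas 2.3.3, and intervals with SciPy 1.17.1. The counting steps were tested on simulated data. As a group has 1 map, no test across mice was made, and leaving out mice was not possible. The members and the gene lists were chosen with earlier results of these data known. The lists take whole gene symbols by name pattern. Genes named are, of each list, up to 4 with the fewest CpG among those in states 1 to 5 throughout, those in states 6 to 8 throughout and those not the same in all maps, up to 10 in state 1 throughout, and up to 6 of each move with the most of the new state within 5 kb. Alternatives changed the CpG limit, the families, the TSS, the bins read, the states and the sequence filter. Some genes that this rule names are not reported here.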

Additional observations from a re-analysis of the deposited data

Results flagged for a closer look

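The share of low-CpG promoters in state 3, the H3K27ac and H3K4me1 pattern, stood out because its difference from SD 3m had opposite signs in the older groups. It was -0.04 percentage points for SD 12m and 3.39 points for CR 12m, from 297 promoters at 3 months, 296 for SD 12m and 383 for CR 12m. The count in SD 12m was thus nearly that of SD 3m. Over all promoters state 3 held 5.80%, 8.34% and 13.8%, higher in both older groups than in SD 3m.

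For state 7, the pattern of faint H3K4me3 and H3K27me3, the difference was 2.29 points for SD 12m and -0.39 points for CR 12m, from 53 promoters at 3 months, 111 for SD 12m and 43 for CR 12m. Over all promoters state 7 held 1.53%, 2.16% and 0.943%, so the signs were opposite there too and not particular to low-CpG promoters. With 1 map for each group neither difference between the groups was tested, and both use the same SD 3m map.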

How the results depend on the processing

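Each alternative changed 1 choice, and values are given in the order state 8 in SD 3m, SD 12m and CR 12m, states 1 to 5 in SD 3m, and another state than in SD 3m in SD 12m and CR 12m. With 5 or fewer CpG (995 promoters) they were 68.6%, 58.5%, 67.9%, 20.1%, 28% and 23.3%. With 15 or fewer CpG (3860) they were 49.8%, 43.8%, 48.7%, 36.1%, 32.6% and 33.2%. With the Olfr, Vmn and Krt genes kept in (3899) they were 68.4%, 52.5%, 64.3%, 20.1%, 32.5% and 26%. Among promoters with 80% or more of their words at a single place (1955) they were 48.7%, 40.5%, 49.0%, 36.2%, 35.3% and 34.7%. With 1 promoter for each 100 kb (1859) state 8 held 53.2%, 47.3% and 53.9% and states 1 to 5 held 33.3%, whereas the shares with another state moved by less than their interval. With the 8 states merged into 5 classes, 23.8% and 22.7% had another state. The most upstream TSS and the most frequent state of 5 bins moved none of the 6 values beyond its interval. State 8 held a smaller share in SD 12m than in either other group under every alternative that gave its share.

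No paired analysis was possible because the libraries of a group were merged into 1 map, and for the same reason results without 1 mouse were not computed. Depth of the merged maps, the unequal numbers of H3K4me3 libraries and the spread between mice limit every difference between groups, and their part was not tested.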
